A study of Mus musculus with 8 samples.

Results

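Cytosolic ribosomal protein genes, together with the related transcript Rps4l, were followed in mouse embryonic stem cell (ESC) lines with and without the zinc finger transcription factor Zfp281. The members were taken by symbol alone: every gene whose platform symbol is that of a numbered small-subunit (Rps), large-subunit (Rpl) or stalk (Rplp) protein, with the suffixes a, l, x, a1 or l1 allowed, and Rpsa. Probe sets that name more than 1 gene were left out. This gave 49 of the 18193 genes measured, and 105 of the 34945 probe sets that name 1 gene. A member's level is its robust multi-array average (RMA) value, a log2 scale on which a difference of 1 is a 2-fold difference, on whichever of its probe sets averaged highest across the 8 arrays. A further 28 symbols of the family, among them Rpl3, Rpl5, Rpl10 and Rplp1, lie only on probe sets that also name other genes and are not members.

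The null lines (7, 3.34 and 3.38) carry a null allele on both copies of Zfp281, the heterozygous lines (5 and 3.1) carry 1 null allele, and the wild-type lines (3, 3.2 and 3.3) carry none. Targeting in CJ7 ESCs put a floxed neomycin resistance cassette in place of both exons, and thus of all coding sequence. Null alleles with and without the cassette exist, and the sources used here do not state which of them each line carries. The targeted cells gave mice, and lines of all 3 genotypes came from blastocysts of heterozygous intercrosses. All lines grew on mouse embryonic fibroblast feeders in serum with LIF and had no further treatment. Each line was measured once, on an Affymetrix mouse genome array of total RNA, so the replicates are separate lines, each of which is 1 derivation, and feeder RNA may be part of each sample. Fewer cells of a type and less RNA per cell cannot be told apart in such bulk samples.

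Each ribosome joins a small subunit, which reads the mRNA, to a large subunit, which makes the peptide bond, and nearly all of the ribosomal proteins are present once in each ribosome. Their mRNAs are among the most abundant in growing cells, and most begin at a C followed by a run of pyrimidines, the 5′ terminal oligopyrimidine (TOP) tract, through which translation of the whole set responds to mTOR signalling. A few members have paralogs with a narrower expression, and many have processed pseudogenes of nearly identical sequence.

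Zfp281 had log2 values of 3.64, 5.06 and 5.23 in null lines 7, 3.34 and 3.38, while heterozygous lines 5 and 3.1 had 6.69 and 6.97, and wild-type lines 3, 3.2 and 3.3 had 6.88, 7.93 and 6.72. It was lower in every null line than in every other line. The probe set was still called present in 2 of the 3 null lines, and the sources used here do not say which part of the transcript the probe set reads. Of the 8 ESC markers, 7 were called present in all 8 lines. The 3′ minus 5′ difference, averaged over the Gapdh and beta-actin controls and a measure of how complete the labelled RNA is, was 2.68 to 3.71 (log2) in the null lines, 4.49 and 4.80 in both heterozygous lines, and 4.23 to 4.86 in the wild-type lines. Of its variance, 79.1% lay between genotypes. Present calls covered 32.9% to 35.3% of probe sets in null, 28.4% and 32.3% in heterozygous and 30.4% to 33.2% in wild-type lines.

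The bases around the annotated transcription starts were searched at the place where a TOP tract would lie. RefSeq start sites were given for 43 of the 49 members, and none for Rps4l. A C followed by at least 4 pyrimidines, on the transcribed strand and starting within 10 bases of the annotated start, was found in 27 of these 43 (62.8%), against 34.4% of 27025 genes. The G-rich word GGGGAGGGG, searched on both strands over the 250 bases before and 50 after the start, was in none of the 43 windows, against 7.20% of all genes. The search for the tract does not overlap the search for this word except where CCCCTCCCC lies at a start. The sequences below run from 10 bases before to 20 bases from the start (build GRCm38.p6, RefSeq), 5′ to 3′. Where a tract was found, only the first stretch that fits is in capitals. In Rps18 a longer run nearer the start also fits and is not in capitals. They are of the members with 1 annotated start that had the 4 highest, the 4 smallest and the 2 lowest differences between null and wild-type lines, chosen after those values were seen.
Rpl39l (chr16:10170218-10170247, plus strand): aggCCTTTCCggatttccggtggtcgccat
Rplp0 (chr5:115559457-115559486, plus strand): cgggtttcgaggaccgcctggttctcctat
Rpl11 (chr4:136053374-136053403, minus strand): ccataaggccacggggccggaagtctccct
Rpl12 (chr2:32961702-32961731, plus strand): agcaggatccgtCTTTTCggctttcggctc
Rps3 (chr7:99483690-99483719, minus strand): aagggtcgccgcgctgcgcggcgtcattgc
Rps28 (chr17:33824543-33824572, minus strand): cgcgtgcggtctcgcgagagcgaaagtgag
Rpl13a (chr7:45128726-45128755, minus strand): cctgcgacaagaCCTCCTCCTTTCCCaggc
Rps18 (chr17:33955646-33955675, minus strand): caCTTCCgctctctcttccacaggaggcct
Rpl27a (chr7:109519185-109519214, plus strand): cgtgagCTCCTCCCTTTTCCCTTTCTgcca
Rps25 (chr9:44407704-44407733, plus strand): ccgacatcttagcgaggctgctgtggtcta
Of these, 2 of the 4 with high differences, 2 of the 4 with the smallest and 1 of the 2 lowest have the tract. Among members with a start site, it was found in 4 of the 10 whose difference exceeded 0.5 (40.0%) and in 11 of the 14 whose difference lay within 0.1 of 0 (78.6%). Members outside these ranges are left out, and so are Rps4l, Rps14 and Rpl8, for which no start was given. The range near 0 holds Rps16 and Rpl3l, called present in no line, and members whose probe sets disagree, such as Rps18. A link between tract and difference was not tested. The tracts are matches in annotated windows, and where transcripts start in these cells was not measured. A miss therefore does not show that a member lacks the tract.

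Between null and wild-type ESCs members lay close to 0 in a smaller share than genes at large, and a few stood far from the rest. The median log2 difference of the 49 members was 0.13, against −0.01 over all genes, and 32 members had a higher and 17 a lower mean in null lines, so that 65.3% of the family was higher against 46.8% of all genes. Within 0.25 of 0 lay 24 members, 49% of the family, against 71.3% of all genes. Of the 49 members, 46 were called present in all 8 lines, while present calls covered 28.4% to 35.3% of probe sets per array. Here and below, the shares over all genes may thus take in many genes not called present. No background of genes at the family's level was drawn. At an adjusted p under 0.05 from limma (a linear model with moderated variances, Benjamini-Hochberg adjustment over all genes), 2 members were higher in null lines and 0 lower, against 0.693% of all genes higher and 1.13% in either direction. At an unadjusted p under 0.05 there were 18 members, 36.7% of the family, where 16.4% of all genes were. With the 3′ minus 5′ difference of each array as a covariate, the count was 1 member against 462 of the 18193 genes. On the deposited linear signal values it was 6 members against 1848 genes. By size, 6 members were more than 2-fold higher (1.37% of all genes) and 1 was more than 2-fold lower (1.10% of all genes). All 3 null lines lay above all 3 wild-type lines for 19 members, 38.8% of the family against 11.1% of all genes, and below them for 4, 8.16% against 11.2%.

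**Figure D1:**
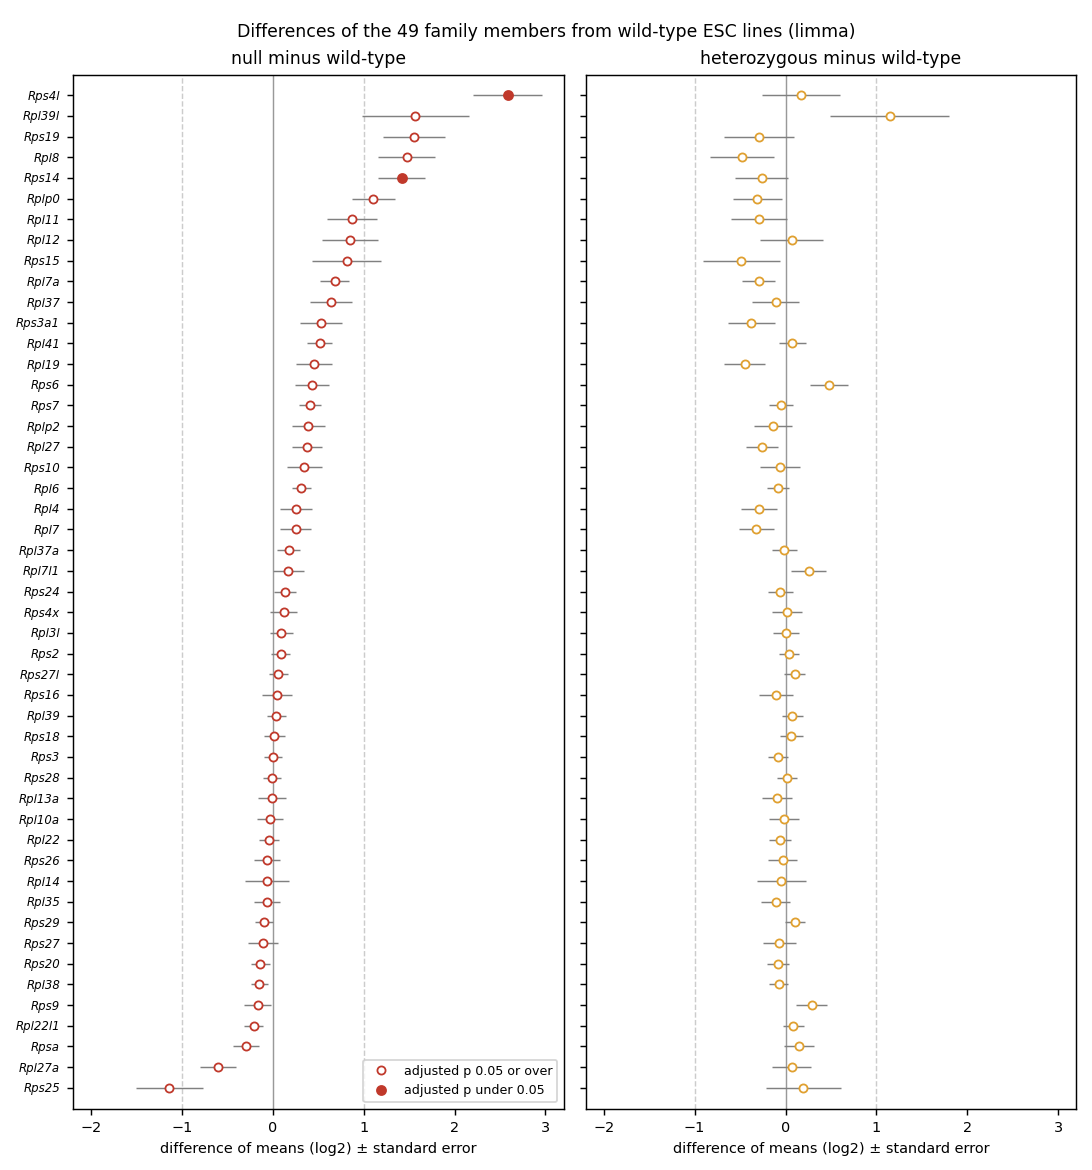
Difference of means (log2, with its standard error from limma) of the 49 members, null minus wild-type on the left and heterozygous minus wild-type on the right, ordered by the null difference. Filled points passed an adjusted p of 0.05, and dashed lines mark a 2-fold difference. Rps4l stands at 2.58 and Rps25 at −1.14 in null lines. Of the 49 heterozygous differences, 33 (67.3%, against 81.5% of all genes) lie within 0.25 of 0. The others reach −0.48 and, in Rpl39l, 1.15.

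Rps4l, by its name a relative of the small-subunit protein gene Rps4x, had the highest difference of the family and of all 18193 genes. Null lines 7, 3.34 and 3.38 had log2 values of 9.98, 9.18 and 8.90, heterozygous lines 5 and 3.1 had 7.07 and 6.80, and wild-type lines 3, 3.2 and 3.3 had 6.77, 6.04 and 7.50. Other members are given in the same order of lines. The null lines lay above all others with no overlap, and the heterozygous lines fell inside the wild-type range. Null ESCs averaged 9.35 ± 0.56 and wild-type ESCs 6.77 ± 0.73 (SD, n = 3 lines each), and the difference was 2.58 on the log2 scale (standard error, SE, 0.38, limma adjusted p = 0.0370). Without single lines the log2 fold change stayed above 2, but the adjusted p from limma reached 0.129 when null line 7 was left out, 0.113 for wild-type line 3 and 0.0814 for wild-type line 3.2. With the 3′ minus 5′ difference of each array as a covariate, the log2 fold change was 1.12 (limma adjusted p = 1.00). Null line 7 shares a litter with wild-type line 3, and null line 3.38 with wild-type line 3.3, and Rps4l differed by 3.21 and 1.40 within these pairs. Fitted to these 4 lines with the litter as a block, the difference was 2.31 (limma adjusted p = 0.0798), and without the block the adjusted p was 0.0630.

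Rps4x itself, the X-linked gene for ribosomal protein S4, had a level that overlapped between genotypes. Its log2 value was 13.66, 13.52 and 13.80 in null, 13.58 and 13.53 in heterozygous and 13.33, 13.43 and 13.84 in wild-type lines. Null exceeded wild-type by 0.12 on the log2 scale (SE 0.15, limma adjusted p = 0.793). RefSeq lists Rps4l on chromosome 6 as a transcribed pseudogene of 941 bases, within the span of Tmtc1. Tmtc1 had a log2 fold change of 0.36 (limma adjusted p = 0.272) between null and wild-type lines, and of the 10 nearest genes in the table, 5 on each side, the 5 that were measured all missed the threshold.

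The genes whose pattern over the 8 lines was most like that of Rps4l were Ppp1ca, Prpf31, Ubxn1, Rdm1 and Clpp, with Pearson correlations of 0.993, 0.990, 0.990, 0.988 and 0.987 across all 18193 genes. Within the family the closest were Rplp0 at 0.968, Rps14 at 0.949, Rps19 at 0.941 and Rps7 at 0.932, and the farthest were Rpl27a at −0.954 and Rpsa at −0.863. These 8 values share the split between genotypes and the 3′ minus 5′ difference of the arrays, and are given as a description.

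Among the proteins of the small subunit, Rps14 was the second member to pass. Rps14, a gene whose loss is linked to the anaemia of the human 5q− syndrome, had log2 values of 12.93, 12.55 and 12.29 in null, 10.63 and 11.18 in heterozygous and 10.91, 10.91 and 11.69 in wild-type lines. The null lines were separate from all other lines. Null and wild-type means differed by 1.42 (SE 0.26, limma adjusted p = 0.0483), and it missed the threshold with 7 of the 8 lines left out in turn, at an adjusted p of up to 0.189. With the covariate for the 3′ minus 5′ difference it was 0.67 (limma adjusted p = 1.00). In the 4 litter mates it was 1.31 (limma adjusted p = 0.140 with the litter as a block and 0.117 without). Its other probe set gave 1.39.

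Rps19, mutated in human Diamond-Blackfan anaemia, did not pass. It had log2 values of 10.89, 10.32 and 9.75 in null, 8.15 and 8.81 in heterozygous and 8.49, 8.47 and 9.35 in wild-type lines. Null and wild-type means differed by 1.55 (SE 0.34, limma adjusted p = 0.0713). Rps15, a protein of the head of the small subunit, overlapped between genotypes on its brightest probe set. Its values there were 11.96, 12.12 and 11.38 in null, 9.88 and 11.17 in heterozygous and 10.38, 11.25 and 11.39 in wild-type lines. On its other probe set the null lines, at 10.99 to 11.95, did not overlap the others. There wild-type lines spanned 9.57 to 10.78, and heterozygous lines were at 8.98 and 10.05. That probe set gave a null minus wild-type difference of 1.46 (limma adjusted p = 0.117 in the fit of probe sets).

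**Figure D2:**
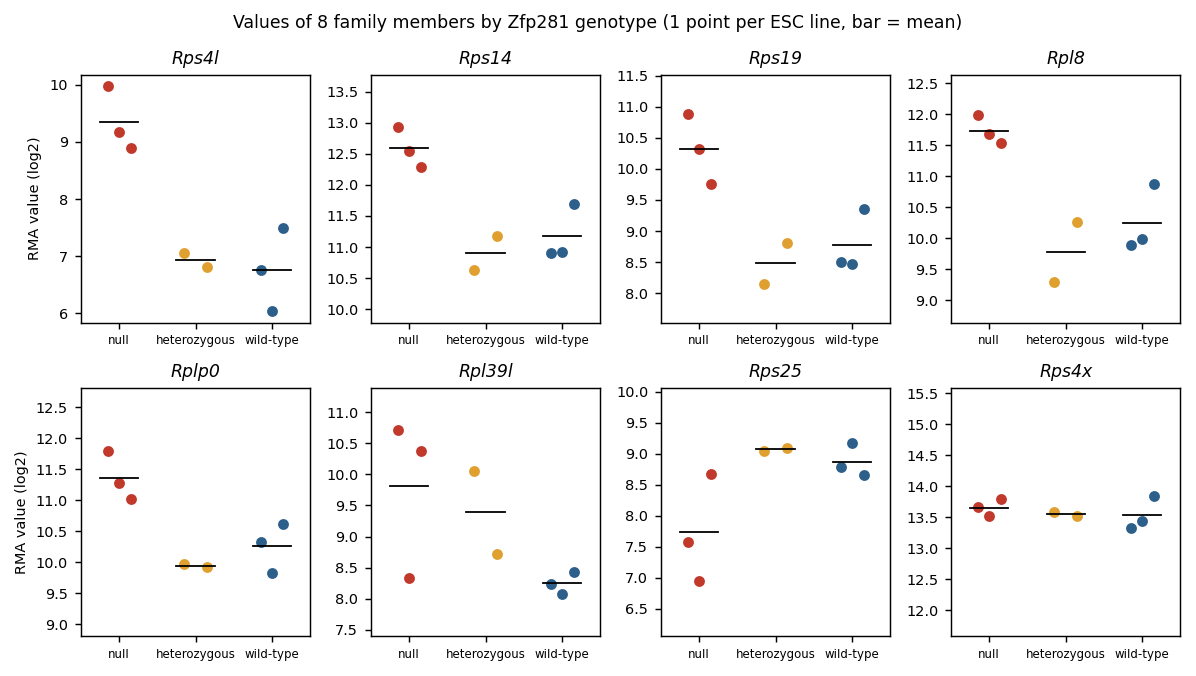
RMA value (log2) of 8 members in each ESC line by genotype, with 1 point per line and a bar at the mean of each genotype. In Rps4l, Rps14, Rps19, Rpl8 and Rplp0 all null lines lie above all wild-type lines, while Rps4x spans 13.33 to 13.84 over all lines. The Rpl39l values fall into a high and a low group of lines that crosses genotypes.

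Of the small-subunit members with functions of their own, Rps6, the substrate of S6 kinase, had values of 6.73, 7.32 and 7.41 in null, 7.10 and 7.29 in heterozygous and 6.53, 6.86 and 6.78 in wild-type lines, a log2 difference of 0.43 for null (limma adjusted p = 0.303) and 0.47 for heterozygous lines (adjusted p = 0.997). Rps3, which binds mRNA at the entry channel, lay between 13.53 and 13.68 in null lines and between 13.57 and 13.66 in wild-type lines, a difference of −0.00. Rpsa, also known as the laminin receptor, was lower in all null lines, at 12.58, 12.66 and 12.68, than in wild-type lines, at 12.82, 13.26 and 12.72, with a difference of −0.29 (limma adjusted p = 0.384). The heterozygous lines were at 13.04 and 13.13.

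Rps25, which is needed for initiation at certain viral internal ribosome entry sites and is dispensable for growth in yeast, was the lowest member. Its log2 values were 7.58, 6.95 and 8.67 in null, 9.05 and 9.09 in heterozygous and 8.78, 9.17 and 8.66 in wild-type lines. Null line 3.38 lay inside the wild-type range, and the other null lines lay below it. The log2 fold change was −1.14 (SE 0.37, limma adjusted p = 0.170), and −1.60 (adjusted p = 0.0395) without null line 3.38. Of the 8 fits with a line left out, Rps25 passed in this 1 only. Over these fits it ran from −1.60 to −0.75, with a limma adjusted p of up to 0.440. Rps25 differed by −1.20 between litter mates 7 and 3 and by 0.01 between 3.38 and 3.3. The only probe set used for Rps25 averaged 8.50 over all lines, and the brightest of Rps6 averaged 7.00, while 25 members averaged over 12. The sources used here do not say which part of the transcripts these probe sets read. Rps20, a protein of the small-subunit head, and Rps9, a protein of the small-subunit body, differed by −0.14 and −0.17.

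In the large subunit, Rpl8, a protein next to the peptidyl transferase centre, had the highest difference between null and wild-type lines apart from the paralog Rpl39l. Its log2 value was 11.98, 11.68 and 11.53 in null, 9.30 and 10.26 in heterozygous and 9.90, 9.99 and 10.88 in wild-type lines. The null lines did not overlap the others, and null exceeded wild-type by 1.47 (SE 0.31, limma adjusted p = 0.0666). Rplp0, the base of the stalk that recruits elongation factors, was at 11.79, 11.28 and 11.01 in null, 9.97 and 9.92 in heterozygous and 10.32, 9.83 and 10.61 in wild-type lines, also with no overlap. The difference was 1.11 (SE 0.24, limma adjusted p = 0.0680).

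The other stalk protein measured as a member, Rplp2, differed less. It had values of 12.20, 12.37 and 12.05 in null, 11.35 and 11.99 in heterozygous and 11.63, 11.78 and 12.03 in wild-type lines, a difference of 0.39 (limma adjusted p = 0.348). Rpl12, which sits at the base of the stalk, had 8.33, 7.39 and 8.34 in null, 7.39 and 7.08 in heterozygous and 7.59, 6.66 and 7.26 in wild-type lines, so that null line 3.34 fell inside the wild-type range. Rpl11, which with Rpl5 and the 5S RNA can bind the p53 regulator Mdm2, was at 11.32, 10.75 and 10.65 in null, 9.39 and 10.09 in heterozygous and 9.78, 9.79 and 10.51 in wild-type lines. Its difference was 0.88 (SE 0.28, limma adjusted p = 0.156).

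Rpl27a was the large-subunit member lowest in null lines, at 10.47, 10.65 and 10.92 against 11.34, 11.62 and 10.89 in wild-type lines. Null line 3.38 lay just above wild-type line 3.3, and the heterozygous lines, at 11.31 and 11.39, lay inside the wild-type range. The log2 fold change was −0.60 (SE 0.19, limma adjusted p = 0.164). Rpl38, which is required in mice for translation of certain Hox mRNAs, was at 13.45, 13.56 and 13.59 in null and 13.74, 13.65 and 13.66 in wild-type lines, a difference of −0.15 (limma adjusted p = 0.522).

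By subunit, the 22 large-subunit members had a median log2 difference of 0.28 between null and wild-type lines, with 15 higher in null, and the 21 small-subunit members one of 0.05, with 12 higher. The 6 paralogs (Rps4l, Rps27l, Rpl3l, Rpl7l1, Rpl22l1 and Rpl39l) had a median of 0.13, with 5 higher. The difference between the subunits was not tested.

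Paralogs and their parent genes were set side by side. Rpl39l, a copy of Rpl39 known mainly from the testis, was at 10.72, 8.34 and 10.37 in null, 10.05 and 8.72 in heterozygous and 8.23, 8.07 and 8.42 in wild-type lines. Null lines 7 and 3.38 and heterozygous line 5 were high, and null line 3.34 lay within the wild-type range. The difference from wild-type was 1.57 for null (SE 0.59, limma adjusted p = 0.228) and 1.15 for heterozygous lines (SE 0.66, limma adjusted p = 0.997). Without null line 3.34 the null difference was 2.30 (adjusted p = 0.0400), and of the 8 fits with a line left out Rpl39l passed in this 1 only. Over these fits it ran from 1.11 to 2.30, with a limma adjusted p of up to 0.582. It was 2.22 in the 4 litter mates (limma adjusted p = 0.0363 with the litter as a block and 0.0230 without), and −0.47 with the covariate for the 3′ minus 5′ difference (adjusted p = 1.00). Rpl39, called present in 4 lines, spanned 5.18 to 5.25 in null and 5.09 to 5.32 in wild-type lines.

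Rps27l, a p53 target and relative of Rps27, lay at 11.37 to 11.64 in null and 11.43 to 11.46 in wild-type lines, a difference of 0.06, and Rps27, which forms part of the small subunit, at 4.44 to 4.72 and 4.55 to 4.84, a difference of −0.10. The values of Rps27 and Rpl39 lay not far above the array medians (3.87 to 3.92), where a difference may be hidden. Levels on different probe sets do not show whether a paralog exceeds its parent gene. Rpl22l1 was lower in all null lines, at 11.36 to 11.47, than in wild-type lines, at 11.56 to 11.76 (log2 difference −0.21, limma adjusted p = 0.356), while its relative Rpl22, an RNA-binding protein needed for T cell development, differed by −0.04. Rpl7l1 and Rpl7, both of the large subunit, differed by 0.17 and 0.25. Over the probe sets called present in all lines, Rpl7l1 ran from 0.17 to 0.56, Rpl7 from 0.21 to 0.49 and Rpl22 from −0.62 to 0.14. Rpl3l, a paralog of striated muscle, was called present in no line.

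In heterozygous lines no member passed. The null and heterozygous comparisons share the wild-type lines, and their values are given side by side without a test of likeness. The median difference between heterozygous and wild-type lines was −0.06 over the members, with 19 higher and 30 lower means. At an adjusted p under 0.05 from limma were 0 members (0% of all genes), and 0 had an unadjusted p under 0.05, against 3.85% of all genes. More than 2-fold higher was 1 member, Rpl39l (0.126% of all genes), and none was 2-fold lower (0.209% of all genes). Both heterozygous lines lay above all wild-type lines for 4 members (8.44% of all genes) and below them for 1 (8.83%).

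The lowest heterozygous differences were those of Rps15 at −0.48, Rpl8 at −0.48, Rpl19 at −0.45 and Rps3a1 at −0.37, the last of them a small-subunit protein and Rpl19 a large-subunit one. The highest, after Rpl39l, were those of Rps6 at 0.47, Rps9 at 0.29 and Rpl7l1 at 0.25. The 2 heterozygous lines differed between themselves: 36 of 49 members were lower in line 5 than in line 3.1, with a median difference of −0.19, against −0.02 over all genes, 53.3% of which were lower in line 5. Against the wild-type mean the median member was at −0.18 in heterozygous line 5 and 0.07 in line 3.1. In null lines 7, 3.34 and 3.38 it was at 0.12, 0.13 and 0.12.

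Rps15 shows the gap between the heterozygous lines, at 9.88 in line 5 and 11.17 in line 3.1, where wild-type lines spanned 10.38 to 11.39. Rpl19 was at 11.49 and 12.06 in them, against 12.35, 11.85 and 12.48 in wild-type lines. Without heterozygous line 5 the median heterozygous difference of the members was 0.07, and without line 3.1 it was −0.18.

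Against heterozygous lines, null lines gave a median difference of 0.10 over the members. Here 0 members passed an adjusted p of 0.05 from limma (0% of all genes), and 24 had an unadjusted p under 0.05, against 13.8% of all genes. The lowest adjusted p was 0.0656, that of Rps14, and that of Rps4l was 0.0677 at a log2 difference of 2.42. More than 2-fold higher in null were 7 members (1.76% of all genes) and more than 2-fold lower was 1 (0.660%), Rps25 at −1.33.

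**Figure D3:**
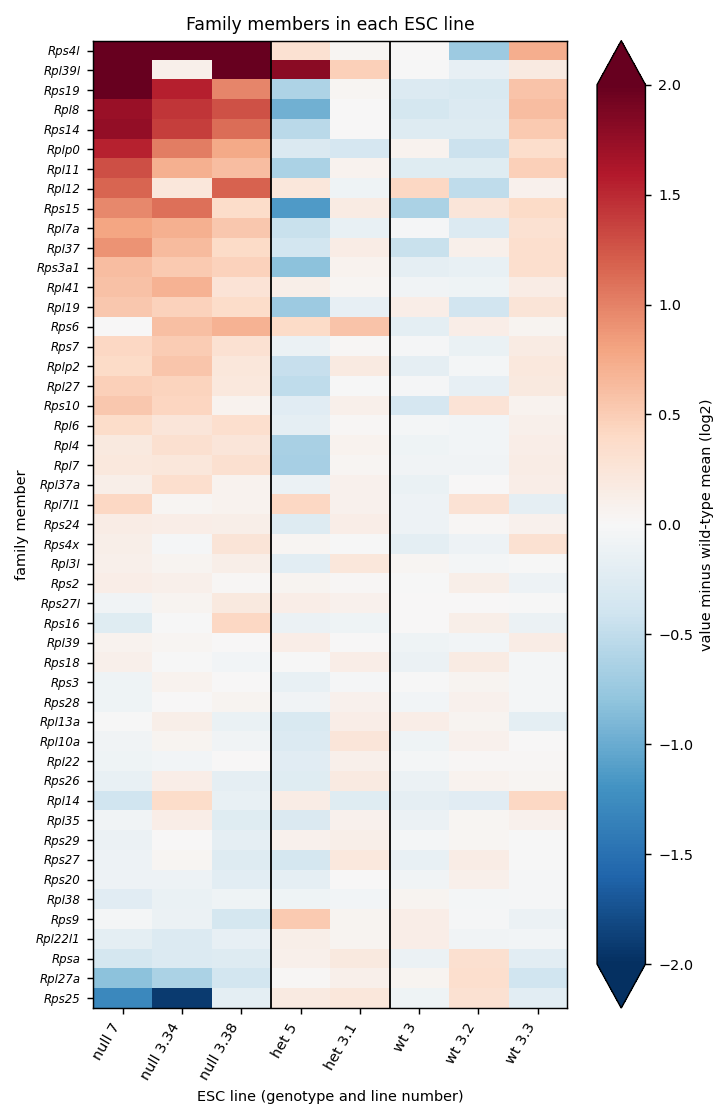
Value of each of the 49 members in each ESC line minus its wild-type mean (log2, colour scale from −2 to 2 with values beyond it at the end colours), null lines on the left, then heterozygous and wild-type lines. Members run from the highest null difference at the top to the lowest at the bottom. Most of the strong red lies in the upper rows of the null lines, Rpl39l is also red in heterozygous line 5 at 1.81, heterozygous line 5 is blue in many of the same rows, and wild-type line 3.3 is slightly red in them.

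Probe sets of 1 member did not always agree, and their differences varied with the level of the probe set. Of the 105 probe sets, 86 were called present in all 8 lines. The 33 of these with a mean log2 value between 12 and 15 had a median null minus wild-type difference of −0.01, and 0 of them exceeded 1. The 38 with a mean between 9 and 12 had a median of 0.53, and 12 exceeded 1. The 15 below 9 had a median of 0.17. By the Affymetrix suffix, the median was 0.39 for the 27 probe sets of suffix a, 0.29 for the 20 with none, and 0.07 for the 36 of suffix x, which share some probes with other transcripts. The part of probe set level in the family's spread was not tested.

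Of the 20 members with several such probe sets, the highest and lowest difference lay a median of 0.33 apart. The next genes were chosen after their values were seen. Rps18, a small-subunit head protein, gave 0.02 on its brightest probe set and 1.72 on its dimmest, and Rps9 gave −0.17 and 0.88, with another of its probe sets at 1.54. Rps10, also a small-subunit protein, ranged from 0.35 to 1.31, and Rpl13a, a large-subunit protein, from −0.01 to 0.88. In others the probe sets agreed closely, as in Rps28 (−0.05 to −0.01) and Rpl37a (0.17 to 0.19). Since the brightest probe set stands for a gene, the counts above can move with that choice, and Rps9 would be higher in null lines on its probe set without an x or s suffix (log2 fold change 0.88, limma adjusted p = 0.0426). Rps16 is represented by a probe set called present in no line, at a mean of 3.01 in null and 2.96 in wild-type lines.

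**Figure D4:**
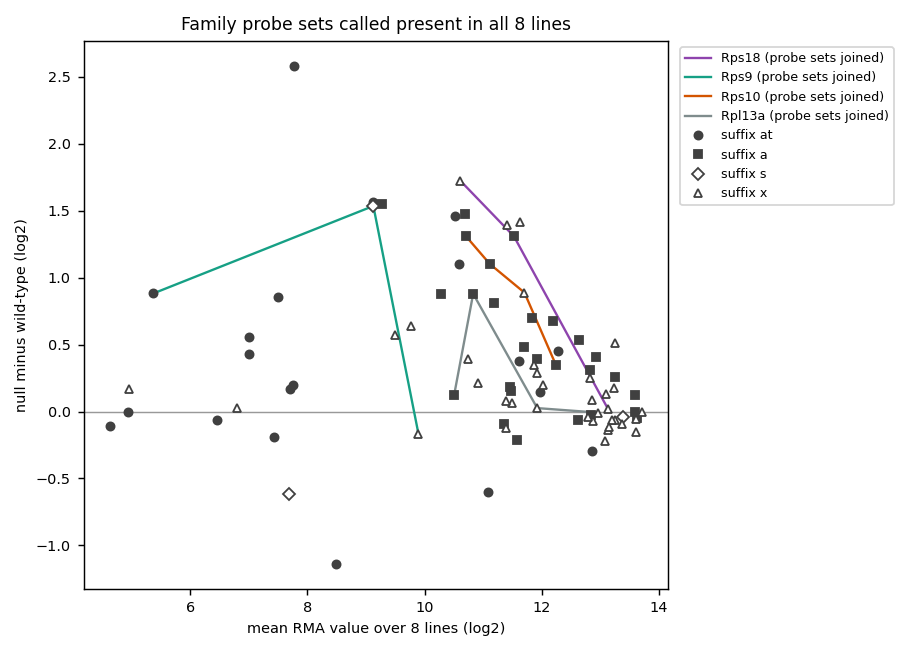
Null minus wild-type difference (log2) against mean RMA value over the 8 lines (log2) for the 86 probe sets of the family called present in all lines, by Affymetrix suffix. Lines join the probe sets of Rps18, Rps9, Rps10 and Rpl13a. Points right of 12 lie between −0.29 and 0.68, and 12 of the 13 above 1 lie between 9 and 12.

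The 110 probe sets that name a family symbol along with other genes had a median difference of 0.08 between null and wild-type lines, with 69 higher in null, 6 over 1 and 1 under −1. They cannot be assigned to 1 gene.

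The genes that act with the family were mostly short of the threshold between null and wild-type lines, which 1.13% of all genes passed. Of the 17 measured mRNAs of non-ribosomal proteins known to carry a TOP tract, such as elongation factors, 0 passed an adjusted p of 0.05 from limma between null and wild-type lines, and the median was 0.15. Of 13 regulators of TOP mRNAs and S6 kinase signalling, 0 passed (median 0.04). Mtor, the kinase of that pathway, was closest at 0.67 (limma adjusted p = 0.0686). Of 14 chaperones and importers of ribosomal proteins, 0 passed (median 0.23), and Bccip, the chaperone of Rpl23, was closest at 0.63 (adjusted p = 0.0613). Of 7 genes of the Mdm2 and p53 response, 1 passed, Zmat3, a p53 target, at 0.63 (limma adjusted p = 0.0467). It passed in 2 of the 8 fits with a line left out, where its adjusted p reached 0.1735, and with the covariate for the 3′ minus 5′ difference it was at 0.60 (adjusted p = 1.00). Fau, the small-subunit protein outside the symbol rule, differed by 0.37 (adjusted p = 0.231).

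Markers of the cells a culture can hold were set beside these values. The mean log2 value of the 8 ESC markers in each line was 9.77 to 9.95 in null, 9.33 and 9.52 in heterozygous and 8.96 to 9.49 in wild-type lines, and Dppa5a passed (log2 fold change 1.23, limma adjusted p = 0.0301). The mean of 9 feeder fibroblast markers was 5.92 to 6.18 in null, 6.37 and 6.96 in heterozygous and 5.83 to 6.64 in wild-type lines, with 0 passing. That of 8 endoderm markers was 5.13 to 5.51 in null, 5.30 and 5.43 in heterozygous and 5.44 to 6.09 in wild-type lines, where Lamb1 passed as lower in null (−1.25), and 3 markers were called present in no line. The part of these cells in the differences of the family was not tested.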

How the data were processed

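Total RNA of 8 ESC lines was measured on 8 Affymetrix arrays, 3 null, 2 heterozygous and 3 wild-type. The log2 values deposited by the authors come from RMA of the whole set of arrays. They also deposited linear signal intensity values, each with a detection p-value and call (present, marginal or absent), and the sources used here do not state how those were scaled. The number of arrays limits the precision. Lines were grouped by their labels. Gene names came from the platform annotation, and probe sets naming several genes or none were left out. Probe sets cannot tell ribosomal proteins from their pseudogenes where sequences are shared.

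The brightest probe set on average stood for each gene. Genotype means were fitted to all arrays with limma 3.58.1 in R 4.3.3 (lmFit, eBayes), with Benjamini-Hochberg adjustment over 18193 genes. The fit was tested on simulated data. A member's 2-fold threshold is a log2 difference of 1. Alternatives were a covariate of the 3′ minus 5′ control difference, detected genes only, the mean of probe sets, 2 genotypes only, quantile normalization, the signal values (with a floor of 1), an intensity trend in eBayes, each line left out, and, chosen after seeing the data, leaving out x and s probe sets or lines 3.2 and 3.1, and a fit of 4 lines with or without the litter as a block. The study's legends name 2 pairs of litter mates (7 with 3, 3.38 with 3.3). The labels give no pairing, the litters of the other lines were not used here, and all other fits treat lines as unpaired. Figures and tables used Python 3.11.15, pandas 2.3.3, numpy 2.4.6 and matplotlib 3.10.9.

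Named members were those past the threshold, the 8 highest and 8 lowest differences for null, the 4 highest and 4 lowest for heterozygous lines, paralog pairs and members with known roles of their own. The members and the lists of other genes were chosen with earlier results of these data known. RefSeq genes and start sites (GRCm38.p6) gave names, neighbours and sequences.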

Additional observations from a re-analysis of the deposited data

How the results depend on the processing

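The members that passed an adjusted p of 0.05 from limma between null and wild-type lines numbered 2, and 0 with the 3′ minus 5′ covariate, on signal values, or without lines 3.2 and 3.1, 1 with the mean of probe sets, with 2 genotypes only or with quantile normalization, 5 with detected genes only, and 0 to 3 with a line left out. Over all genes the count was 206, and 0, 0, 5 and 442 with the covariate, signal values, without lines 3.2 and 3.1 and detected genes only, and 2 to 208 with a line left out, being 3, 2 and 4 when the line was null 7, wild-type 3 and wild-type 3.2. Members 2-fold higher numbered 6, or 1 with the covariate, and those 2-fold lower 1, or 0 without lines 3.2 and 3.1 (0 to 1 with a line left out). For heterozygous lines, 0 members were 2-fold lower, 2 without lines 3.2 and 3.1 and up to 1 with a line left out, those 2-fold higher were 0 to 1 with a line left out, and all genes passing were 0, 1 without x and s probe sets, and 0 to 2 with a line left out.

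For null against heterozygous lines, members passing were 0, 5 with detected genes only, 1 with 2 genotypes only and 0 to 5 with a line left out. All genes passing were 0, 166 with detected genes only, 36 with the intensity trend, 20 with the mean of probe sets, 96 with 2 genotypes only, 53 without x and s probe sets and 0 to 346 with a line left out. Members 2-fold higher were 7, 2 with the covariate, 11 on signal values, 11 without lines 3.2 and 3.1 and 6 to 11 with a line left out. Members 2-fold lower were 1, 2 with the covariate and 0 to 1 with a line left out. The median of the members was 0.10, and 0.35 without x and s probe sets.

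Rps4l between null and wild-type lines had a log2 fold change of 2.58, of 1.12 with the covariate (adjusted p = 1.00), of 2.52 on signal values (adjusted p = 0.228), of 2.22 without lines 3.2 and 3.1 (adjusted p = 0.0952), and of 2.22 to 2.95 with a line left out, missing the threshold without null line 7 or wild-type lines 3 or 3.2. Against heterozygous lines it was 2.42, passing with detected genes only (adjusted p = 0.0401) and with 2 genotypes only (adjusted p = 0.0446), and at 2.10 to 2.64 with a line left out. Rpl39l reversed to −0.47 with the covariate, and Rps9 to 0.88 without x and s probe sets. Among all results followed, which include medians of the family as well as values of members, 86 further values changed sign, none of them past the threshold. The cause of these changes was not tested. Fitted to the 2 null and 2 wild-type litter mates with the litter as a replicate block (1 residual degree of freedom), 1 member passed, 0 were 2-fold lower, and Rps4l was at 2.31 (limma adjusted p = 0.0798), and without the block 1, 0 and 2.31 (adjusted p = 0.0630). All genes passing were 178 with the block and 198 without. A level near the top of the scale, the number of lines and the confounding of genotype with the 3′ minus 5′ difference limit what can be told apart.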
